A study of Mus musculus with 6 samples.

Results

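The mitochondrial breakdown of the branched-chain amino acids was examined through 10 genes, Bcat2, Bckdha, Bckdhb, Dbt, Ivd, Mccc1, Mccc2, Auh, Hibch and Hibadh. They were chosen by name as the rows of the deposited count table that carry these symbols. All 10 were found among 56691 gene rows, and all 10 passed the filter on low counts that left 15429 genes for testing. The libraries came from heart cells labelled as primary cardiomyocytes of neonatal mice. All cultures received an adenovirus with the cardiac troponin T (cTNT) promoter, which is active in cardiomyocytes. In the 3 control libraries (treatment Ad-cTNT vector) the virus carried no insert, and in the 3 libraries labelled HMGB2 overexpression (treatment Ad-cTNT-HMGB2) it carried HMGB2, a DNA-bending chromatin protein. The virus is thus shared by both groups, and no group without virus is analysed here. The labels give neither the dose of virus nor the time of collection, and they do not tie replicates to separate cultures or animals. The p-values therefore cover the spread among these libraries, some or all of which could be technical.

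Leucine, isoleucine and valine are essential amino acids that muscle and heart can oxidise in their mitochondria. Bcat2, the mitochondrial aminotransferase, moves the amino group away, and the branched-chain keto acid dehydrogenase complex then removes a carbon irreversibly. The complex is built from the decarboxylase subunits Bckdha and Bckdhb, the transacylase Dbt and the dehydrogenase Dld, and it is switched off by the kinase Bckdk and on again by the phosphatase Ppm1k. These entry steps are common to the 3 amino acids. The leucine branch continues through isovaleryl-CoA dehydrogenase (Ivd), the biotin enzyme methylcrotonyl-CoA carboxylase (Mccc1 and Mccc2) and methylglutaconyl-CoA hydratase (Auh) and ends in acetyl-CoA and acetoacetate. The valine branch includes the hydrolase Hibch and the dehydrogenase Hibadh and ends in propionyl-CoA. In heart, genes of this pathway are known to be activated by the transcription factor Klf15 and to fall in heart failure.

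The 6 libraries held between 12498215 and 16618365 counts, and each member had between 99 and 1196 counts in each library. Hmgb2 was 4.33-fold higher with the HMGB2 virus. Vector 1 and HMGB2 3 stood apart from the other libraries. The log2 difference of vector 1 and HMGB2 3 from the rest of their group was related to exonic gene length across genes, with a Spearman's rho of -0.441 and -0.403, against 0.253 to 0.328 in the other 4 libraries. The 10 genes were higher than in the rest of the group by a median of 0.24 (vector 1) and 0.15 (HMGB2 3) on the log2 scale, against medians of -0.12 to -0.058 in the other libraries. Counts of genes that passed are therefore also given without these 2 libraries. Of 10 cardiomyocyte markers, 8 rose, and their summed level was 11815 to 13688 CPM (counts scaled to a common library size, with sizes adjusted by the trimmed mean of M values, TMM) with the vector and 21916 to 24484 CPM with HMGB2. Of 8 fibroblast markers, 2 fell and 6 did not pass (4954 to 5028 against 4404 to 4497 CPM). Of 8 endothelial markers, 3 fell and 5 did not pass (4273 to 4398 against 3596 to 3743 CPM). Of 7 macrophage markers tested, 2 fell and 5 did not pass (37.8 to 44.6 against 26.6 to 33.8 CPM). Without vector 1 and HMGB2 3, 10 cardiomyocyte markers rose, 6 fibroblast and 2 macrophage markers fell, and of the endothelial markers 7 fell and 1 rose. None of these markers was at 0 in all libraries, and the part of cell makeup in the results below was not tested. In bulk RNA, fewer cells of a type and less RNA per cell cannot be told apart.

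Transcripts of the leucine branch were higher with HMGB2, while those of the shared entry steps did not pass the test. Of the 10 members, 5 rose (Ivd, Mccc1, Mccc2, Auh and Hibch), 0 fell and 5 did not pass (Bcat2, Bckdha, Bckdhb, Dbt and Hibadh). The test was edgeR's quasi-likelihood F-test with Benjamini-Hochberg adjustment over all genes tested, and an adjusted p under 0.05 counted as passed. Among all genes tested 14.4% rose and 10.8% fell by this rule, 25.2% in all. At an unadjusted p under 0.05 (edgeR) the members that were lower also numbered 0, against 2608 of all 15429 genes tested. With DESeq2 they numbered 0 at an adjusted p under 0.05, where 1504 of all genes were lower. With 10 members, a count of 0 is little to go by. The median log2 fold change of the 10 was 0.285 (1.22-fold), against -0.0022 over all genes tested, and 9 of the 10 values were positive. For 5 members the 3 HMGB2 libraries lay above all 3 vector libraries, which held for 21.6% of all genes tested. The reverse held for 18.9% of all genes tested, and in 40.5% the groups did not overlap in either direction. Without vector 1 and HMGB2 3 together, 6 members rose, the same 5 and Hibadh, while over all genes the share that rose was 20.9% and the share that fell 19.1%. The number of members that rose was 2 without vector 2, without vector 3 or without HMGB2 2, and 3 without HMGB2 1 or HMGB2 3. The share of all genes that rose was lower there too, at 10.1%, 10.7%, 10.2%, 9.94% and 12.6% in the same order.

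**Figure D1:**
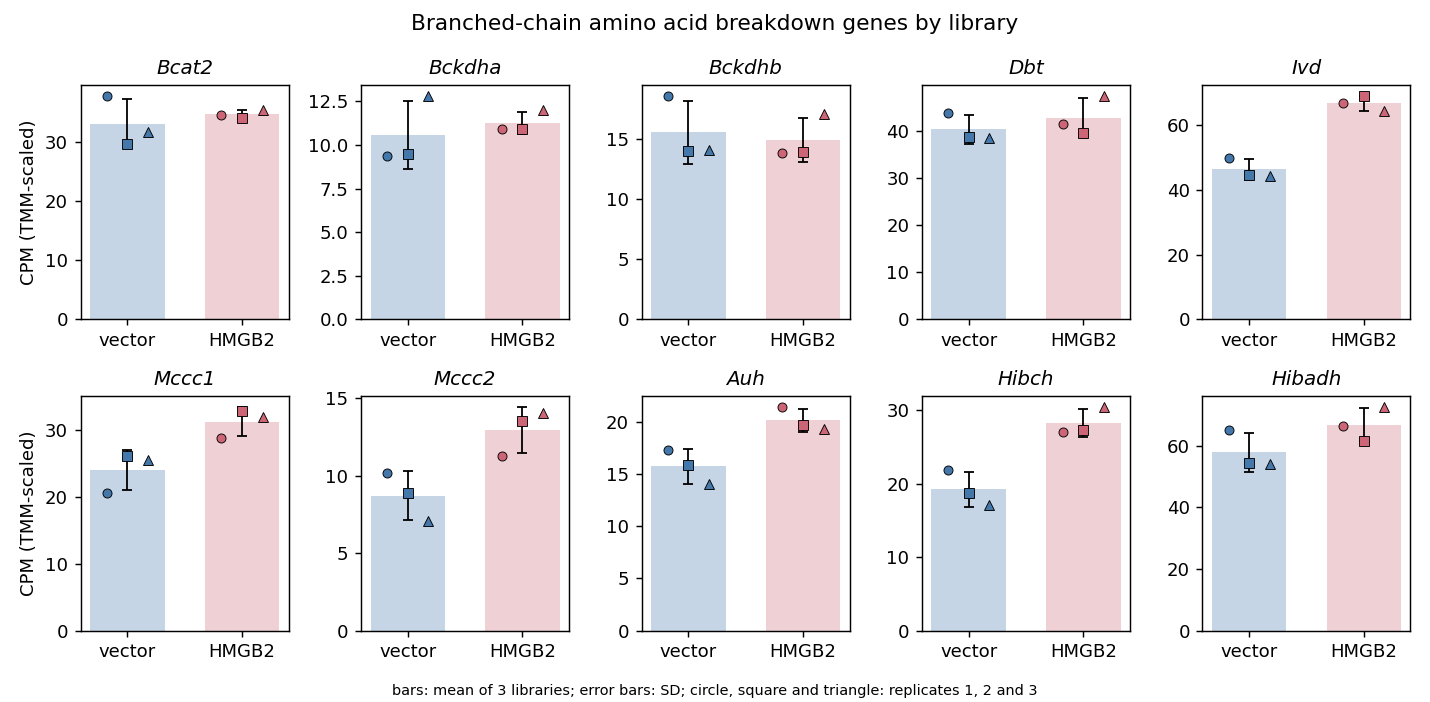
Level of each of the 10 genes in CPM (y axes, from 0) in the 3 vector and 3 HMGB2 libraries; bars are means, error bars SD, and circle, square and triangle are replicates 1, 2 and 3. The HMGB2 points lie above all vector points for Ivd, Mccc1, Mccc2, Auh and Hibch and overlap with them for Bcat2, Bckdha, Bckdhb, Dbt and Hibadh.

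In the deposited values per length, the members lay at low to moderate levels. In FPKM, which divides a count by gene length and library size and was taken from the table the authors deposited, the vector libraries had Dbt highest at 11.98 ± 0.987 (SD, n = 3) and Auh lowest at 1.63 ± 0.175. Between them came Bckdhb (8.56 ± 1.49), Bcat2 (8.43 ± 1.12) and Ivd (8.33 ± 0.615), whose ranges overlapped. Hibadh (5.64 ± 0.644) and Bckdha (5.51 ± 1.01) overlapped as well, as did Hibch (3.14 ± 0.405) and Mccc2 (3.09 ± 0.561), and Mccc1 (2.18 ± 0.257) lay above Auh. With HMGB2, Ivd had the second highest mean at 12.2 ± 0.321 FPKM, close to Dbt (12.9 ± 1.32), and Bckdhb was at 8.34 ± 1.09. This order depends on the length assigned to each gene. All exons merged span 10179 bases for Hibadh and 3348 for Dbt. The longest Hibadh transcript is shorter, since 855 bases make up 46.8% of it. In CPM, Hibadh was the highest member with the vector (57.9 ± 6.27), and Dbt was at 40.5 ± 3.09. Levels at transcript length were not computed.

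Through the aminotransferase Bcat2 and the subunits Bckdha, Bckdhb and Dbt all 3 amino acids pass, and each of these 4 genes had overlapping groups. Bcat2 (ENSMUSG00000030826, GRCm38 chromosome 7, 45570153 to 45589711, plus strand) held 37.8, 29.8 and 31.8 CPM in vector 1, 2 and 3 and 34.7, 34.1 and 35.5 CPM in HMGB2 1, 2 and 3. Vector 1 was above every HMGB2 library and the other vector libraries below them. The log2 fold change was 0.07 (adjusted p = 0.67 with edgeR, SE 0.10), with a 95% interval of 0.897- to 1.23-fold. On the other strand an antisense gene, with 0 to 4 counts a library, overlaps 15.9% of its exons.

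Bckdha (ENSMUSG00000060376, chromosome 7, 25629946 to 25658981, minus strand), the decarboxylase alpha subunit, held 9.38, 9.49 and 12.8 CPM with the vector and 10.9, 10.9 and 12.001 CPM with HMGB2. The log2 fold change was 0.09 (adjusted p = 0.689 with edgeR, SE 0.14), with an interval of 0.852- to 1.33-fold. Here vector 3 was the highest of all libraries and vector 1 the lowest. The exons of B3gnt8 on the other strand cover 61.7% of those of Bckdha. B3gnt8 had 9 to 35 counts a library and Bckdha 117 to 198. The counting is not stated to use strand, and the counts of Bckdha are uncertain for this reason.

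Bckdhb (ENSMUSG00000032263, chromosome 9, 83925145 to 84124240, plus strand), the beta subunit, held 18.6, 14.0 and 14.1 CPM with the vector and 13.9, 13.9 and 17.1 CPM with HMGB2. Its highest values were those of vector 1 and HMGB2 3, the libraries that stood apart. It had the only negative value among the 10, a log2 fold change of -0.05 (adjusted p = 0.83 with edgeR, SE 0.14), with an interval of 0.771- to 1.21-fold. Dbt (ENSMUSG00000000340, chromosome 3, 116513070 to 116549981, plus strand), the lipoate-bearing core of the complex, held 44.0, 38.8 and 38.6 CPM with the vector and 41.6, 39.7 and 47.5 CPM with HMGB2. Vector 1 and HMGB2 3 were again the highest of their groups, and the groups overlapped. Its log2 fold change was 0.09 (adjusted p = 0.557 with edgeR, SE 0.10), with an interval of 0.915- to 1.24-fold. The upper bounds of these intervals lay between 1.21- and 1.33-fold, so that larger rises of these 4 genes lay outside them and smaller ones inside. None of the 4 passed under any of 17 alternative settings.

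In the leucine branch, all 4 members rose. Ivd (ENSMUSG00000027332, GRCm38 chromosome 2, 118861954 to 118882909, plus strand), a flavoenzyme and the first dehydrogenase of the branch, held 49.9, 44.6 and 44.4 CPM in vector 1, 2 and 3 and 66.7, 68.8 and 64.4 CPM in HMGB2 1, 2 and 3. The groups were far apart compared with their spread (46.3 ± 3.13 against 66.6 ± 2.23 CPM, SD, n = 3). The rise was 1.44-fold (log2 0.53, adjusted p = 0.00114 with edgeR, SE 0.08), and it passed under all 17 alternatives, with log2 values from 0.50 to 0.61.

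Mccc1 (ENSMUSG00000027709, chromosome 3, 35959312 to 36000678, minus strand), which carries the biotin of methylcrotonyl-CoA carboxylase, held 20.6, 26.0 and 25.5 CPM with the vector and 28.7, 32.8 and 31.9 CPM with HMGB2. It rose 1.29-fold (log2 0.37, adjusted p = 0.0349 with edgeR, SE 0.11), and the lowest HMGB2 library was above the highest vector library. Mccc2 (ENSMUSG00000021646, chromosome 13, 99948530 to 100015639, minus strand), the other subunit, held 10.2, 8.91 and 7.08 CPM with the vector and 11.3, 13.5 and 14.1 CPM with HMGB2. It rose 1.49-fold (log2 0.57, adjusted p = 0.0246 with edgeR, SE 0.16), again without overlap, though HMGB2 1 was close to vector 1. Both subunits of the carboxylase thus rose, and their intervals of 1.09- to 1.54-fold and 1.17- to 1.89-fold overlapped. The call of Mccc1 was lost without any 1 of the 6 libraries, with adjusted p values from 0.054 (without HMGB2 1) to 0.127 (without HMGB2 2). That of Mccc2 was lost without vector 2 (0.0723), vector 3 (0.0826), HMGB2 2 (0.0821) or HMGB2 3 (0.0646), and both held without vector 1 and HMGB2 3 together (0.0325 and 0.00227).

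Auh (ENSMUSG00000021460, chromosome 13, 52835119 to 52929681, minus strand), a hydratase that also binds AU-rich RNA, held 17.3, 15.8 and 14.0 CPM with the vector and 21.4, 19.7 and 19.3 CPM with HMGB2. All HMGB2 libraries were above all vector libraries. It rose 1.28-fold (log2 0.36, adjusted p = 0.0374 with edgeR, SE 0.11). This call was lost without vector 2 (0.0985), vector 3 (0.131), HMGB2 1 (0.134) or HMGB2 2 (0.0872), and it held without vector 1 and HMGB2 3 together (0.00198).

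In the valine branch, Hibch rose and Hibadh did not pass. Hibch (ENSMUSG00000041426, chromosome 1, 52844929 to 52920986, plus strand), which releases free hydroxyisobutyrate from its CoA ester, held 21.8, 18.7 and 17.1 CPM with the vector and 27.1, 27.2 and 30.4 CPM with HMGB2. It rose 1.47-fold (log2 0.56, adjusted p = 0.00563 with edgeR, SE 0.11), without overlap, and passed under all 17 alternatives (log2 0.46 to 0.66). Hibadh (ENSMUSG00000029776, chromosome 6, 52546228 to 52640389, minus strand), which oxidises that product, held 65.1, 54.5 and 54.0 CPM with the vector and 66.5, 61.7 and 72.5 CPM with HMGB2. Only vector 1 reached into the HMGB2 range. Its log2 fold change was 0.21 (adjusted p = 0.154 with edgeR, SE 0.10), with an interval of 0.994- to 1.35-fold, and it passed without vector 1 (log2 0.30, adjusted p = 0.0211) and without vector 1 and HMGB2 3 together (log2 0.24, adjusted p = 0.00419). Hibch and Hibadh each have a copy elsewhere (Gm7512 and Gm11225, 92.6% and 91.7% identical over part of the transcript) that had 0 counts in all libraries.

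Summed over genes, the branches stood higher against the 4 entry genes among the members in every HMGB2 library than in any vector library. The 4 entry genes summed to 110, 92.1 and 97.3 CPM in vector 1, 2 and 3 and to 101, 98.6 and 112 CPM in HMGB2 1, 2 and 3, a ratio of means of 1.04. The 4 genes of the leucine branch summed to 98.0, 95.3 and 90.9 CPM and to 128, 135 and 130 CPM, a ratio of 1.38, and the 2 of the valine branch to 86.9, 73.2 and 71.1 CPM and to 93.6, 88.9 and 103 CPM, a ratio of 1.23. Within a library, which removes the scaling of the libraries, the leucine branch was 0.892, 1.03 and 0.935 of the entry genes with the vector and 1.27, 1.37 and 1.16 with HMGB2. The valine branch was 0.791, 0.795 and 0.731 of them with the vector and 0.926, 0.901 and 0.918 with HMGB2. Such a ratio does not remove a relation to gene length. Exonic lengths were 1805 to 3900 bases for the entry genes and 2802 to 10952 for the leucine branch. The leucine ratio was lowest of its group in vector 1 and HMGB2 3, which stood apart with gene length, and the valine ratio was not. The dehydrogenase Dld, no member and in FPKM the highest of the genes of the complex, is left out of these sums. With it the entry genes summed to 300, 250 and 252 CPM with the vector and to 296, 297 and 336 CPM with HMGB2, a ratio of means of 1.16. The leucine branch was then 0.327, 0.381 and 0.361 of the entry genes with the vector and 0.433, 0.454 and 0.386 with HMGB2, and the valine branch 0.290, 0.293 and 0.282 against 0.316, 0.299 and 0.306, so that the groups lay closer together and still did not overlap. These ratios are descriptions, with no test, since the genes were grouped with their values known.

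**Figure D2:**
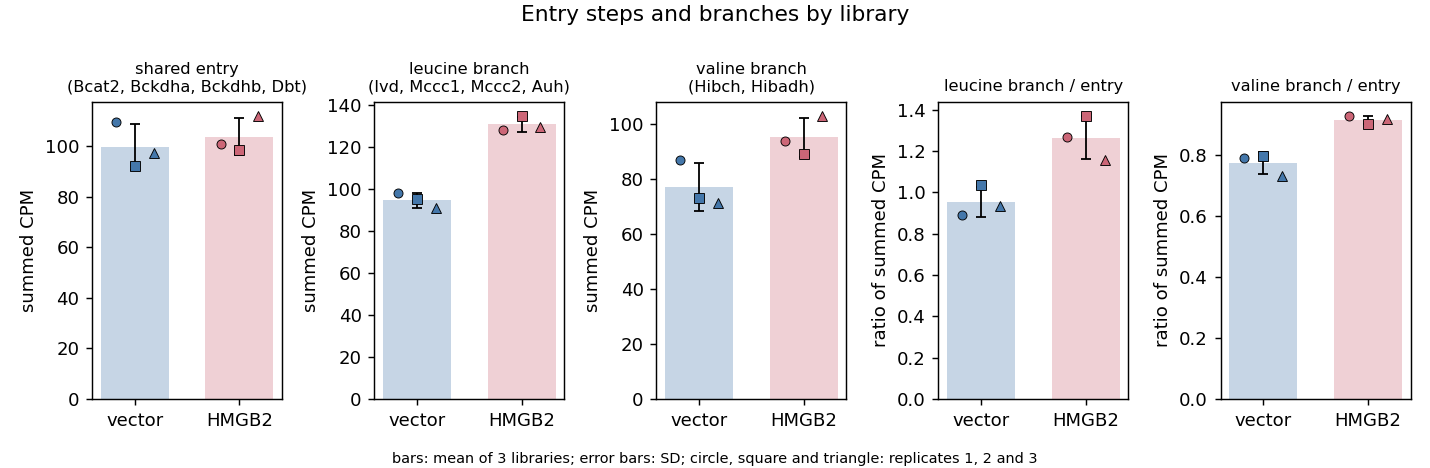
Summed CPM of the entry genes, the leucine branch and the valine branch, and the ratio of each branch to the entry genes (y axes, from 0), in the 3 vector and 3 HMGB2 libraries; bars are means, error bars SD, symbols replicates. The entry sums overlap between groups, while the ratio of the leucine branch to them lies between 0.892 and 1.03 with the vector and between 1.16 and 1.37 with HMGB2.

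The promoters of Ivd, Mccc1 and Mccc2 are shown because these members rose together and repeat a motif near their starts; they were chosen after the motifs had been read. RefSeq promoters (GRCm38.p6, 250 bases before to 50 after the start) were matched by symbol for 9 of the 10 members, with 11 promoters. CCAAT, read on both strands, occurred at least 3 times in 3 of these 11, those of Ivd (4), Mccc1 (3) and Mccc2 (3), and in 3.37% of all 32851 promoters in that table. At least 1 match occurred in 6 of the 11 and in 37.4% of all. Among members that did not pass, the 2 Bckdhb promoters held 2 and 1 matches and the Hibadh promoter 1. The Auh, Hibch, Bcat2 and Bckdha promoters held 0 matches. In the sequences below, read 5′ to 3′ on the strand of the gene, capitals mark every match, on either strand, of the CCAAT box (CCAAT), ETS core (CGGAAG), GC box (GGGGCGGGG), CACCC box (CCCCACCC), E-box (CACGTG), NRF1 motif (GCGCA and GCGC with any base between) and ERR motif (TNAAGGTCA).
Ivd, chr2:118861744-118862043, plus strand: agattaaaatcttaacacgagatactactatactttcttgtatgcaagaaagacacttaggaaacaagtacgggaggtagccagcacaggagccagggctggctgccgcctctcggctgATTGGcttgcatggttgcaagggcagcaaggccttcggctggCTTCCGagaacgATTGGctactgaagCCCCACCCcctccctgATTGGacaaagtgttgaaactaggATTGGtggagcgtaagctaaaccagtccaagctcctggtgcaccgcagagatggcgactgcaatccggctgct
Mccc1, chr3:36000629-36000928, minus strand: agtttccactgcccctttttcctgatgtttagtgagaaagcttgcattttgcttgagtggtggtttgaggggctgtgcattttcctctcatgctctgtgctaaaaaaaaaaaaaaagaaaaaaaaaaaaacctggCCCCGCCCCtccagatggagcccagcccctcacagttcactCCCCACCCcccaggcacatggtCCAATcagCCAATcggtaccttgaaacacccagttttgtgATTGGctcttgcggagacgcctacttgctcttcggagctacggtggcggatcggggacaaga
Mccc2, chr13:100015590-100015889, minus strand: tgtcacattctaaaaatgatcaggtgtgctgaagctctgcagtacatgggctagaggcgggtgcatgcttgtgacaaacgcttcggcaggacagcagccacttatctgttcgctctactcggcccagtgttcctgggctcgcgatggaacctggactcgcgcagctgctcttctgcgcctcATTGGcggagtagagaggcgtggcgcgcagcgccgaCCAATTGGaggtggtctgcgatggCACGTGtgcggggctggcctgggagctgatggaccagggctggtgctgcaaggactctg
The Ivd promoter held CCAAT matches that began 131, 77, 47 and 23 bases before the start, a CACCC box 63 bases and an ETS core 89 bases before it. In Mccc1 they began 52, 44 and 12 bases before the start, with a CACCC box 74 bases before it, and in Mccc2 69, 33 and 30 bases before it, of which the last 2 overlap as a palindrome. The CACCC box occurred in 2 member promoters (Ivd and Mccc1) and in 9.99% of all. The GC box occurred in 5 and in 11.4%, and the ETS core in 4 and in 16.9%. The NRF1 motif occurred in 1 (Hibadh; 4.6% of all), the E-box in 1 (Mccc2; 7.15%) and the ERR motif in 0 (1.28%). A match is a run of letters and not a measured binding site.

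The other genes of the pathway were read from a list of 36, all of which were tested. Of these, 10 rose, 4 fell and 22 did not pass (edgeR), with a median log2 fold change of 0.25. Over all genes tested 14.4% rose and 10.8% fell, which is also the background for the smaller lists below. Without vector 1 and HMGB2 3 together, 21 of the 36 rose and 4 fell, against 20.9% and 19.1% of all genes. Without vector 2 or vector 3, 5 rose, where 10.1% and 10.7% of all genes rose. Without vector 1, 17 rose, and over all genes 2526 rose, against 2224 with all libraries. Without any 1 library but vector 1, 2 fell, where 5.49% to 8.97% of all genes fell. Of 15 other enzymes, 6 rose, 1 fell and 8 did not pass, with a median of 0.28, and 12 rose and 1 fell without vector 1 and HMGB2 3. Hadh, a hydroxyacyl-CoA dehydrogenase of fatty acid oxidation that is counted among these enzymes, rose 1.75-fold (54.2 ± 3.84 CPM with the vector, 95.01 ± 5.83 CPM with HMGB2, edgeR adjusted p = 0.000124). Aldh6a1, which ends the valine branch by making propionyl-CoA, rose 1.59-fold (29.0 ± 1.19 to 46.1 ± 5.01 CPM, 0.00106), and 18.6% of its exons lie opposite those of Bbof1. Both passed under all 17 alternatives.

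The hydratase Echs1 of the valine and isoleucine branches rose 1.31-fold (58.3 ± 6.02 to 76.2 ± 6.32 CPM, edgeR adjusted p = 0.0172). Oxct1, which reactivates acetoacetate for oxidation, rose 1.22-fold (294 ± 14.7 to 357 ± 11.8 CPM, edgeR adjusted p = 0.0179). Acad8, the acyl-CoA dehydrogenase of the valine branch, was named after its values were seen and rose 1.36-fold (edgeR adjusted p = 0.0245). These 3 calls were lost without vector 2 (adjusted p 0.0737 for Echs1, 0.0763 for Oxct1, 0.0952 for Acad8) or vector 3 (0.0713, 0.0746 and 0.0734). Oxct1 was also lost without HMGB2 2 (0.075), and Acad8 without HMGB2 1 (0.0826) or HMGB2 3 (0.0575). Dld, the dehydrogenase that the complex shares with pyruvate dehydrogenase, had a log2 fold change of 0.30 (adjusted p = 0.0508 with edgeR, SE 0.10) with all HMGB2 libraries above all vector libraries, and it passed without vector 1 (0.40, adjusted p = 0.00274).

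The cytosolic aminotransferase Bcat1, which is known from fetal and growing tissues, was the enzyme that fell. It held 33.6, 34.3 and 35.5 CPM with the vector and 23.4, 27.6 and 27.5 CPM with HMGB2, all lower. The log2 fold change was -0.40 (adjusted p = 0.0127 with edgeR, SE 0.09), and the call was lost without HMGB2 1 (-0.32, adjusted p = 0.0628). The ratio of Bcat2 to Bcat1 counts was 1.13, 0.868 and 0.897 with the vector and 1.48, 1.24 and 1.29 with HMGB2, without overlap.

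**Figure D3:**
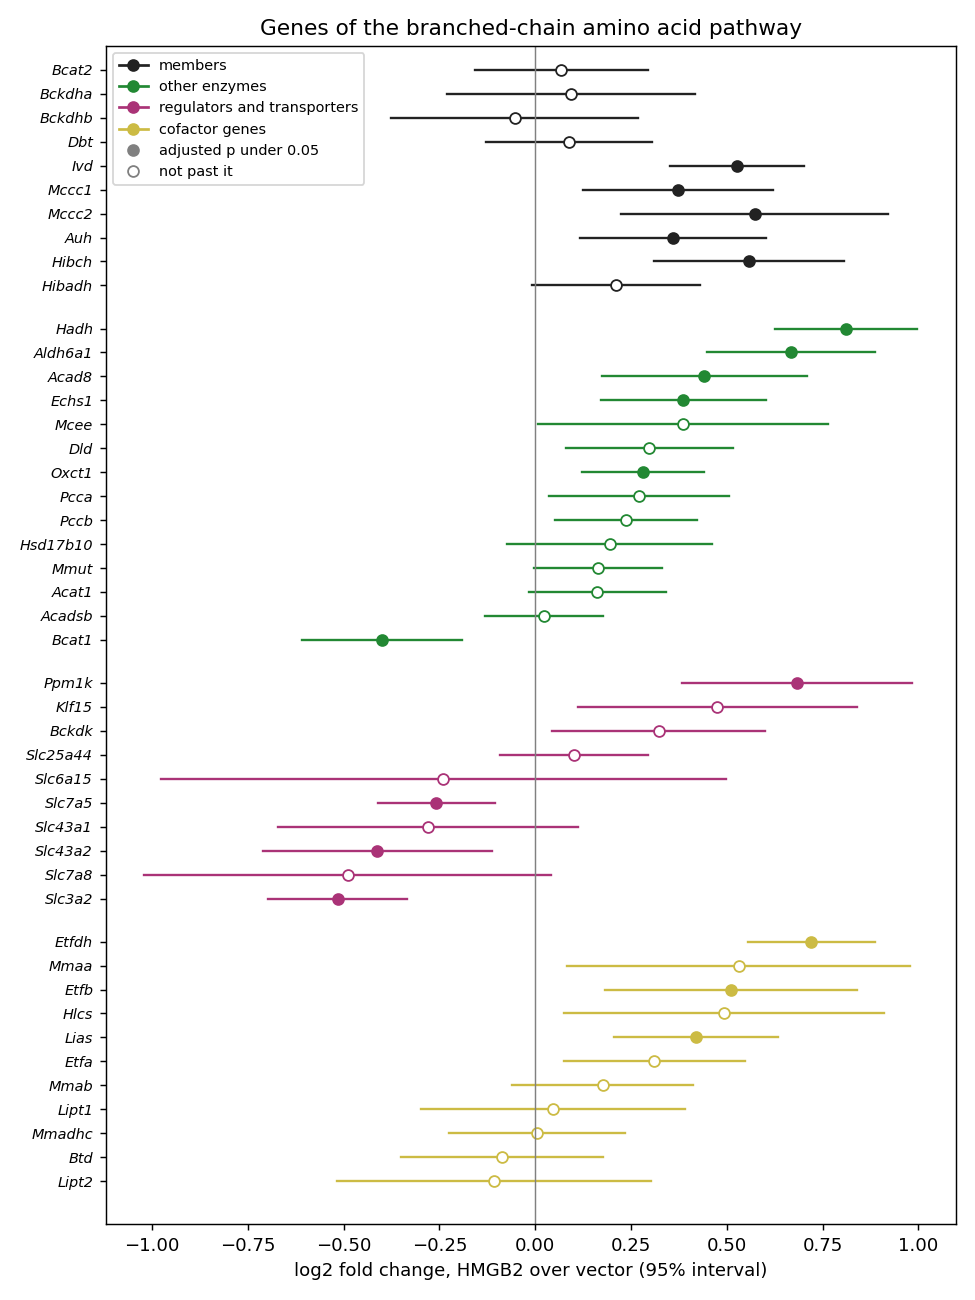
Log2 fold change of HMGB2 over vector (x axis) with its 95% interval for the 10 members and other genes of the pathway, coloured by list; filled points have an edgeR adjusted p under 0.05. The 4 entry genes lie between -0.05 and 0.09, the leucine-branch genes between 0.36 and 0.57, and the amino acid transporters Slc3a2, Slc43a2 and Slc7a5 between -0.52 and -0.26.

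Among 10 regulators and transporters, 1 rose, 3 fell and 6 did not pass, where 14.4% of all genes tested rose and 10.8% fell. The phosphatase Ppm1k, which activates the dehydrogenase complex, held 13.5, 15.045 and 10.5 CPM with the vector and 21.2, 21.9 and 19.6 CPM with HMGB2, all higher. It rose 1.61-fold (log2 0.68, adjusted p = 0.00525 with edgeR, SE 0.13) and passed under all 17 alternatives. The opposing kinase Bckdk held 59.3, 47.1 and 47.4 CPM with the vector and 61.8, 56.3 and 73.9 CPM with HMGB2, where vector 1 lay among the HMGB2 libraries. Its log2 fold change of 0.32 (SE 0.12) did not pass (edgeR adjusted p = 0.0893), but did without vector 1 (0.44, adjusted p = 0.00975) and without vector 1 and HMGB2 3 (0.33, adjusted p = 0.000573). The ratio of Ppm1k to Bckdk counts overlapped between groups, at 0.227, 0.319 and 0.222 with the vector and 0.342, 0.388 and 0.266 with HMGB2. Phosphorylation of the complex is not measured here.

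Klf15, the activator of pathway genes, was low at 4.38 ± 0.682 CPM with the vector and 6.08 ± 0.247 CPM with HMGB2, and its log2 fold change of 0.48 (SE 0.16) did not pass (edgeR adjusted p = 0.0595), though it did without vector 1 (0.60, adjusted p = 0.0278). Slc25a44, the carrier of branched-chain amino acids into mitochondria, had a log2 fold change of 0.10 (adjusted p = 0.438 with edgeR, SE 0.09), with an interval of 0.938- to 1.23-fold. The genes that fell were 3 carriers of the cell surface, Slc3a2, Slc7a5 and Slc43a2, and in each of them all HMGB2 libraries lay below all vector libraries. Slc7a5 and Slc3a2 together form the LAT1 exchanger, which brings leucine and other large neutral amino acids into cells.

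Slc3a2, the heavy chain, held 193, 163 and 167 CPM with the vector and 121, 121 and 124 CPM with HMGB2, and fell by 0.52 on the log2 scale (adjusted p = 0.00148 with edgeR, SE 0.08), under all 17 alternatives. Slc7a5, the transporting chain, held 98.3, 96.2 and 95.4 CPM with the vector and 84.5, 79.9 and 78.0 CPM with HMGB2, and fell by 0.26 on the log2 scale (adjusted p = 0.0219 with edgeR, SE 0.07). The facilitative carrier Slc43a2 fell by 0.41 on the log2 scale (37.5 ± 2.49 and 28.2 ± 5.22 CPM; edgeR adjusted p = 0.0486). The call of Slc7a5 was lost without vector 2 (0.069), vector 3 (0.057), HMGB2 1 (0.0538), HMGB2 2 (0.0937) or HMGB2 3 (0.064), and that of Slc43a2 without vector 2 (0.114), vector 3 (0.148), HMGB2 2 (0.09) or HMGB2 3 (0.0889). Slc43a2 also lost it with the strict filter (0.0508), without robust fitting (0.0505) and with limma on both scales (0.0904 and 0.0947), and Slc7a5 with no filter on low counts (0.0533). Slc7a5 passed under 10 of the 17 alternatives and Slc43a2 under 8. Without vector 1 and HMGB2 3, 3 of the regulators and transporters rose and 3 fell.

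Among 11 genes for cofactors and electron acceptors, 3 rose and 8 did not pass, with a median log2 fold change of 0.31, and 6 rose without vector 1 and HMGB2 3. Etfdh, which passes electrons from Ivd and other acyl-CoA dehydrogenases to ubiquinone, rose 1.65-fold (79.3 ± 2.06 CPM with the vector, 131 ± 8.04 CPM with HMGB2; edgeR adjusted p = 0.000122), under all 17 alternatives. Lias, which makes the lipoate that Dbt carries, rose 1.34-fold (27.4 ± 2.202 to 36.6 ± 2.62 CPM, 0.011), a call lost without vector 2 (0.0543). Etfb, a subunit of the electron transfer flavoprotein, rose 1.42-fold (26.8 ± 4.70 to 38.1 ± 5.72 CPM, edgeR adjusted p = 0.0311). It lost its call without vector 2 (0.0913), vector 3 (0.103), HMGB2 2 (0.0657) or HMGB2 3 (0.0796), and 53.0% of its exons are shared with an overlapping gene on the same strand.

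Beside lists for fatty acid uptake and oxidation and for the citric acid cycle, the 10 genes had a lower median and a smaller share that rose. Of 22 tested genes of fatty acid uptake and oxidation outside the branched-chain lists, 17 rose and 1 fell, with a median log2 fold change of 0.49. Of 22 genes for the oxidation of pyruvate and for the citric acid cycle, 16 rose and 6 did not pass, with a median of 0.46. The cardiomyocyte markers had a median of 0.72, and the fibroblast and endothelial markers -0.18 and -0.19. Without vector 1 and HMGB2 3, 19 genes of the fatty acid list and 21 of the citric acid cycle list rose. These counts and medians describe the lists, and no test of a difference between them was made.

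**Figure D4:**
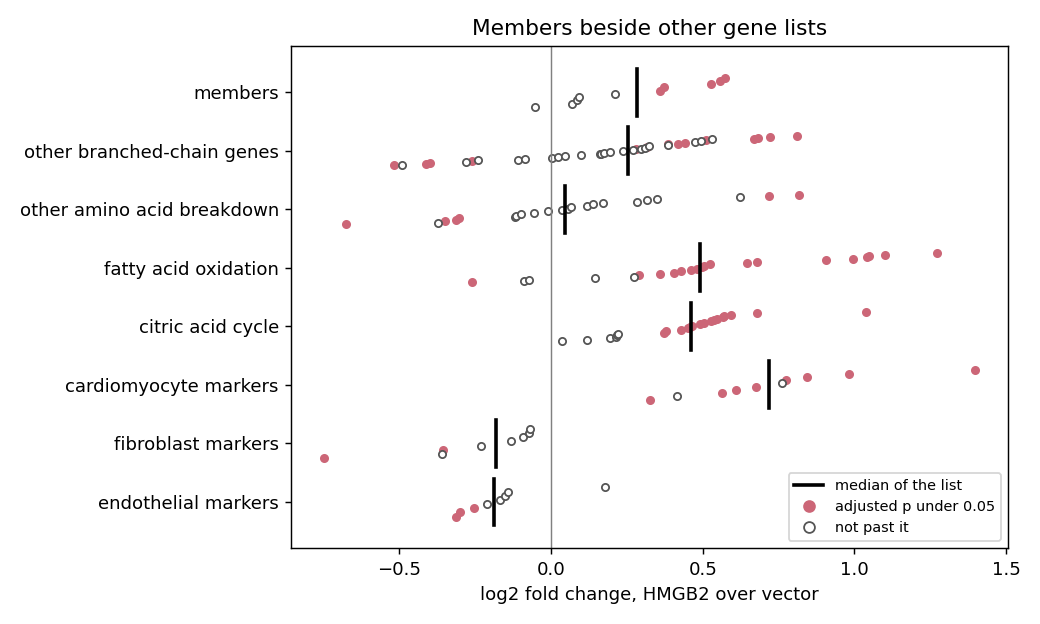
Log2 fold change of HMGB2 over vector (x axis) for each tested gene of 8 lists (rows), with the list median as a black line; filled points have an edgeR adjusted p under 0.05. The median of the members (0.285) lies below those of fatty acid oxidation (0.49), the citric acid cycle (0.46) and the cardiomyocyte markers (0.72) and above those of the fibroblast (-0.18) and endothelial (-0.19) markers.

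Across the settings tried, Ivd and Hibch kept their calls in all 17, while Mccc2 passed in 12, Auh in 8 and Mccc1 in 7. Besides the libraries left out, the calls of Mccc1 and Auh were lost with DESeq2 (adjusted p 0.051 and 0.0946) and with limma on log2(FPKM + 1) (0.0611 and 0.0696). They were also lost with limma on log2(FPKM + 0.1) (0.0641 and 0.0743) and with the replicate block in edgeR (0.0553 and 0.0813). Auh further lost its call with the length offset and the block together (edgeR, 0.0674), and Mccc2 with the block alone (edgeR, 0.0816). Of the other genes named, Echs1, Oxct1 and Acad8 passed in 13, Etfb in 11, and Bcat1 and Lias in 16. The log2 fold change of each of the members Ivd, Hibch, Mccc2, Auh and Mccc1 stayed positive under all 17. Its lowest values were 0.25 for Auh and 0.26 for Mccc1.

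**Figure D5:**
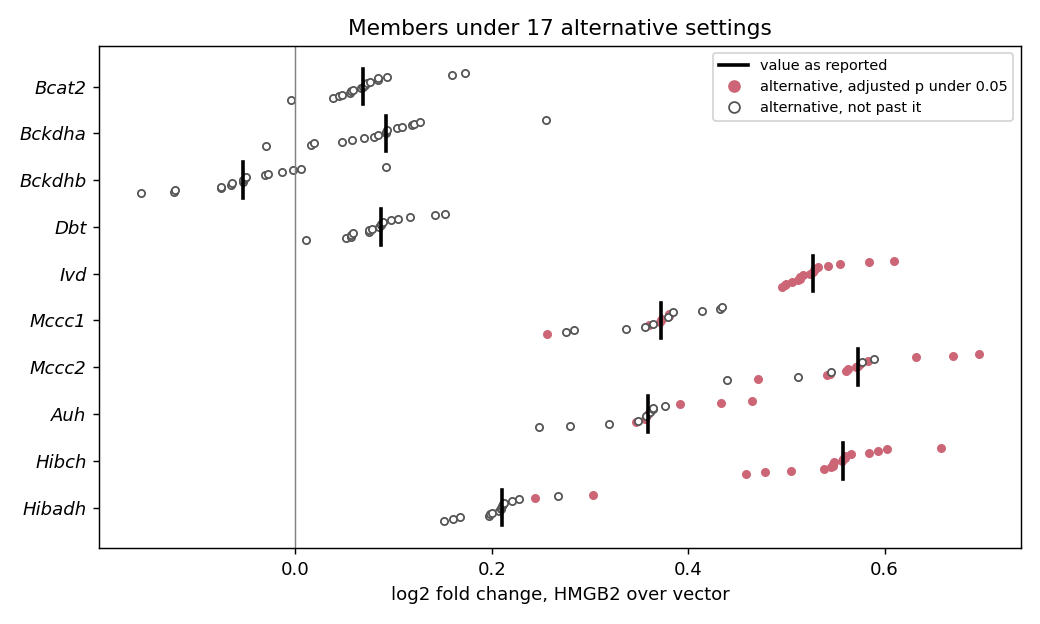
Log2 fold change of HMGB2 over vector (x axis) of the 10 genes (rows) as reported (black line) and under 17 alternative settings (points; filled where the adjusted p was under 0.05). All points of Ivd (0.50 to 0.61) and Hibch (0.46 to 0.66) are filled, and all points of Bcat2, Bckdha, Bckdhb and Dbt are open.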

How the data were processed

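The 3 vector and 3 HMGB2 RNA sequencing libraries, made with a VAHTS kit per the labels' protocols, were compared. The table the authors deposited holds raw whole-number counts per Ensembl gene, and a second deposited table holds FPKM values of the same libraries, which were used for levels per length and as an alternative. The build mm10 and the tools HISAT2 2.2.1, StringTie 1.3.3b, HTSeq 0.6.1 and FastQC 0.10.1 are named, without their roles, in the submitters' processing notes. Only 1472 of the 56691 rows have the start and end that GENCODE M21 (GRCm38) gives, so positions are those of GENCODE M21, found by Ensembl identifier.

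Counts were filtered (filterByExpr, minimum count 10, minimum total 15), scaled by TMM and tested with edgeR 4.0.16 in R 4.3.3 (robust quasi-likelihood fit, group as the only term). With 3 libraries a group, the smallest two-sided p of an exact permutation test is 0.1, so none is given. Intervals are 95% t intervals from the SE. Alternatives used DESeq2 1.42.0, limma 3.58.1 on log2(FPKM + 1) and log2(FPKM + 0.1), other filters and scalings, a loess offset on gene length, a replicate block, and libraries left out. The test was also run on simulated counts. These did not carry the relation to gene length of vector 1 and HMGB2 3, so they cannot show how the test behaves under it. The members and lists were chosen with earlier results of these data known. All members are named, as are Bckdk, Ppm1k, Klf15, Slc25a44, Bcat1 and Dld, and of the other pathway lists the up to 5 genes past the threshold with the smallest p. A gene of the other enzymes is in the counts but is not reported here. Markers of epicardial cells (5 tested, 1 fell), smooth muscle and pericytes (6 tested, 1 rose, 1 fell) and adipocytes (1 of 5 tested, not past the threshold; Plin1 and Lep at 0) were also read.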

Additional observations from a re-analysis of the deposited data

How the results depend on the processing

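The number of members that rose (5) was 3 with DESeq2 and with limma on log2(FPKM + 1) or log2(FPKM + 0.1), and 2 with a replicate block. Over all genes tested, the share that rose was 13.9% and 13.7% with limma and 9.46% with the block, against 14.4% as reported. With DESeq2 1898 genes rose, against 2224 as reported. That was 6.09% of the 31188 genes with any count, a larger base than in the other 3 settings. This base can include genes that DESeq2 leaves without an adjusted p, so the share cannot be set directly beside the others. The number of members that rose lay between 2 and 5 with a library left out, and no alternative made a member fall past the threshold. Of the other pathway genes, 6 rose and 2 fell with the replicate block, 16 rose with the length offset and 21 rose without vector 1 and HMGB2 3. With a library left out, 5 to 17 rose and 2 to 4 fell. Over all genes, 1459 rose and 754 fell with the replicate block, 3265 rose and 2986 fell without vector 1 and HMGB2 3, and 1567 to 2526 rose and 866 to 1960 fell with a library left out. The cause was not tested. Signs changed only among entry genes that had not passed. With a library left out, the log2 fold change of Bcat2 ranged from -0.00397 to 0.173 (without vector 2 and without vector 1) and that of Bckdhb from -0.157 to 0.0922 (without HMGB2 3 and without vector 1), with 0.00579 without HMGB2 1. That of Bckdha was -0.0297 without vector 1 and HMGB2 3. The labels do not say whether replicate numbers pair the samples. Deviations from the group means correlated at -0.318, 0.231 and -0.375 for numbers 1, 2 and 3. The best correlation of vector 1 was with HMGB2 3 (0.521). Since vector 1 and HMGB2 3 stood apart with gene length, these correlations cannot decide whether the numbers pair the samples. With the block, the members called were Hibch and Ivd. With the length offset and the block together, Hibch, Ivd, Mccc1 and Mccc2 passed (4). The calls of Slc7a5 (0.104), Slc43a2 (0.115), Echs1 (0.0719), Oxct1 (0.11) and Etfb (0.104) were also lost with the block. Members had 99 counts or more in each library, and no detection limit was measured.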

Other observations

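Genes that break down or interconvert other amino acids showed no common direction. Of 25 such genes, 22 were tested, of which 2 rose and 4 fell by the edgeR test while 16 did not pass it. Over all genes tested 14.4% rose and 10.8% fell. The median log2 fold change of the 22 was 0.05, with values from -0.67 to 0.82. For 5 of them the HMGB2 libraries lay above all vector libraries and for 5 below, against 21.6% and 18.9% of all genes tested. Without vector 1 and HMGB2 3, 5 rose and 4 fell, against 20.9% and 19.1% of all genes.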
